A study of Rattus norvegicus with 9 samples.

Results

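The Hippo pathway genes described here are the kinases Lats1 and Lats2, the transcriptional coactivators Yap1 and Wwtr1 (which encodes Taz), the DNA-binding partners Tead1 to Tead4, and Amotl2 and Crim1, both known as target genes of Yap and Tead. They were chosen by name, with earlier results of these data known, and 9 of the 10 had a row among the 17315 genes of the tables. Tead4 is not analysed here. All 9 were among the 9130 genes with enough counts to be tested. RNA sequencing was done on rat pXEN cells, primitive extraembryonic endoderm stem cells, all of the line RX1 of the WKY strain, in 9 libraries that fell into 3 groups of 3 by medium. The T medium, a traditional serum medium of DMEM and MCDB on plates coated with 100 ng/ml fibronectin, contained fetal bovine serum at 2% and the glucocorticoid dexamethasone at 0.5 µM, with Pdgf, Egf and Lif at 10 ng/ml each. LPE was a serum-free medium of DMEM/F12, Neurobasal, N2 and B27 on 10 µg/ml collagen I, with Lif, Pdgf and Egf at 10 ng/ml each. CPE was the same with 1 µM Chir99021, an inhibitor of the kinase Gsk3, in place of Lif. All libraries are of 1 line. The labels do not say whether a medium's 3 libraries were separate cultures, so the p-values reflect a spread between libraries that may be technical.

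In the Hippo pathway, a kinase cascade ends in Lats1 and Lats2, which phosphorylate Yap and Taz and thereby hold them in the cytoplasm or mark them for breakdown. Unphosphorylated Yap and Taz enter the nucleus, bind Tead proteins on DNA and switch on target genes, several of which encode brakes on the pathway's own output. In the early mammalian embryo, Tead4 with Yap drives the trophoblast programme in outer cells, and Lats kinases with angiomotin proteins restrain it in inner cells, from which the primitive endoderm arises. The counts below are of transcripts and say nothing of phosphorylation or of where the proteins were.

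Tead proteins bind the letters GGAATG, or CATTCC on the other strand, and the bases upstream of 4 target genes are shown so that they can be set beside those genes' levels: Amotl2 and Crim1 of the genes described here, and the classical targets Ccn1 and Ccn2, which the tables list as Cyr61 and Ctgf. Each run holds the 250 bases before the gene's start, 5′ to 3′ on the gene's strand, from RefSeq on build GRCr8, with those letters in capitals. They lie at chr8:112182376-112182625, plus strand for Amotl2, chr6:22622417-22622666, minus strand for Crim1, chr2:237225690-237225939, minus strand for Ccn1 and chr1:22624615-22624864, minus strand for Ccn2.
Amotl2: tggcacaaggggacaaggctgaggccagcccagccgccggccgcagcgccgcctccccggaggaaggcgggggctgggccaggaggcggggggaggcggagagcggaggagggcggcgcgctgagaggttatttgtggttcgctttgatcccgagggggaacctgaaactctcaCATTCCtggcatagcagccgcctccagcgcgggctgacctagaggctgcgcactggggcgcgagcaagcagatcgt
Crim1: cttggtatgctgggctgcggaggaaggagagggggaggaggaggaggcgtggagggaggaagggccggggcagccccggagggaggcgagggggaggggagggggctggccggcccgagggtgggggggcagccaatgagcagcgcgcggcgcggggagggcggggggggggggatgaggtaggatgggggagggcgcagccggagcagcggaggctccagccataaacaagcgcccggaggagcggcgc
Ccn1: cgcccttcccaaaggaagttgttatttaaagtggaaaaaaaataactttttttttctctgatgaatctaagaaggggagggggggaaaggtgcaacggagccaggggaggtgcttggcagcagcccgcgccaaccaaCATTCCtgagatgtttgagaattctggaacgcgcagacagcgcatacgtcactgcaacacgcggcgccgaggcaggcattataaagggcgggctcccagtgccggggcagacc
Ccn2: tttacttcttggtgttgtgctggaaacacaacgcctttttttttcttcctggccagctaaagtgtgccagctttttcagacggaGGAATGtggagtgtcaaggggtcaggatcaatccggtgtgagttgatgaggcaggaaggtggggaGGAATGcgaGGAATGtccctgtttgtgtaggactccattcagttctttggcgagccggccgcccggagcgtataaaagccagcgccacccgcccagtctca
Amotl2 held 1 match, its first base 76 bases before the start, Ccn1 held 1 at 113, and Ccn2 held 3, at 166, 101 and 92. Crim1 held none in this window. Of the genes described here 6 of 10 had an upstream sequence, and Yap1 was the other with a match, at 116. Of the 15 Yap and Tead target genes with a sequence, out of 22 listed, 5 held a match, and so did 12.1% of all 33469 upstream sequences of that length searched on both strands.

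Reads assigned to genes numbered 1698764 to 2161228 per library in T, 3119049 to 3233526 in LPE and 3127352 to 4418465 in CPE, and were 7.96% to 8.6% of all reads in T against 11.1% to 14.8% in LPE and CPE. Reads with several map positions made up 64.9% to 67.6% of each T library and 51.7% to 59.9% of each LPE or CPE library. This split runs with every comparison with T, and its part in them was not tested. Although LPE and CPE libraries held more gene reads, fewer genes had any count in them. Such genes numbered 8607 to 9314 in LPE and 9162 to 9878 in CPE, against 10143 to 10621 in T. The part of this in the counts of 0 in LPE and CPE was not tested. Among gene reads, 1 count was worth 0.227 to 0.579 CPM (counts scaled to a common library total with TMM factors). The variance between replicates over that of sampling (chi-square over its degrees of freedom) was 1.94 to 4.26 for T pairs, 10.9 to 17.6 for LPE pairs and 11 to 14.2 for CPE pairs. Each pair thus differed by more than the sampling of reads, which does not show whether the libraries came from separate cultures. All 8 endoderm identity markers, Gata4 and Sox17 among them, were detected in every medium, with summed levels of 3290 to 3740 CPM for T, 3240 to 3550 for LPE and 2630 to 2850 for CPE. By edgeR 2 of them were called higher and 1 lower in LPE than in T, beside 15.0% and 14.7% of all genes tested. In CPE against T 4 were higher and 3 lower, beside 16.8% and 15.3%. In CPE against LPE 0 were higher and 2 lower, beside 9.56% and 8.23%. Of 5 fibroblast markers, Col1a2, Dcn and Lum had 0 counts everywhere, and the list summed to 1.39 to 31.3 CPM in T, the highest in replicate 2, and 0 in LPE and CPE. Nanog, Sox2 and Fgf5 had 0 counts in all 9 libraries, as had the blood marker Ptprc. Of 3 endothelial genes tested, 2 were called higher and 0 lower in LPE than in T, beside the same shares of all genes. In CPE 0 were higher and 1 lower than in T, and 0 higher and all 3 lower than in LPE. Kdr had 0 counts in LPE and CPE.

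Lats1, the kinase that phosphorylates Yap and Taz, was higher in both serum-free media than in T, and more so with Lif than with Chir99021. Its levels were 60.0, 48.6 and 59.5 CPM in T replicates 1 to 3, 225, 224 and 204.5 in LPE, and 104.7, 118 and 150.1 in CPE. No library of any medium overlapped with those of another, and LPE held the highest 3. Lats1 was thus 3.88-fold higher in LPE than in T (log2 fold change 1.96, SE 0.18, edgeR adjusted p = 1e-06). In CPE it was 2.21-fold above T (log2 1.14, SE 0.18, adjusted p = 0.00014) and 1.76-fold below LPE (log2 -0.81, SE 0.17, adjusted p = 0.0028). Here and below n is 3 libraries a medium, genes are called where edgeR's quasi-likelihood test, adjusted over all 9130 genes, gave a p under 0.05, and intervals are 95%. The LPE and CPE comparisons with T use the same T libraries and are not separate evidence of each other.

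Lats2, its close relative and itself a Yap target, was a gene of few reads, 12 to 87 per library. It stood at 18.6, 6.95 and 17.2 CPM in T, 27.8, 23.0 and 24.0 in LPE and 9.14, 15.4 and 17.4 in CPE. All 3 LPE libraries lay above all others, yet Lats2 was called in no comparison. The log2 difference was 0.80 between LPE and T (interval -0.19 to 1.79) and -0.83 between CPE and LPE (interval -1.8 to 0.14), while that between CPE and T, at -0.03, had an interval of -1.02 to 0.96. Of all reads on the pair of Lats genes, the Lats1 share was 80.5% ± 6.10 (mean ± SD) for T, 89.7% ± 0.859 for LPE and 90.0% ± 1.82 for CPE, shares that are not corrected for gene length.

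Among the 8 genes of the Hippo kinase cassette, all tested, Lats1 alone was called in LPE against T (3 genes without LPE replicate 3), where edgeR called 0 lower (2 lower at an unadjusted p under 0.05, and 0 by DESeq2). Higher and lower calls made up 15.0% and 14.7% of all genes in that comparison. In CPE against T the cassette had Lats1 higher and Stk4 lower, beside 16.8% and 15.3% of all genes. In CPE against LPE 0 were higher and 1 lower, Lats1, beside 9.56% and 8.23%. Stk4, which encodes the upstream kinase Mst1, fell 1.77-fold from 185 ± 4.19 CPM in T to 104 ± 40.1 in CPE, a call lost without T replicate 1 or 2 (adjusted p = 0.0503 and 0.0539). Its partner kinase Stk3 (Mst2) had 11.3 ± 2.53, 19.5 ± 5.09 and 24.6 ± 7.35 CPM in T, LPE and CPE and was called in no comparison by edgeR. In CPE, Stk3 lay 2.18-fold above T without overlap (log2 1.13, interval 0.21 to 2.04, edgeR adjusted p = 0.057). In that comparison DESeq2 and voom each called 2 cassette genes higher, where edgeR called 1. The scaffold gene Sav1, at 68.5 ± 5.93, 45.4 ± 13.6 and 65.0 ± 7.58 CPM, was not called. Nor was Nf2, the upstream tumour suppressor merlin, at 40.7 ± 3.55, 28 ± 17.9 and 33.8 ± 3.96 CPM. The cassette's median log2 difference was -0.14 in LPE against T, -0.04 in CPE against T and 0.21 in CPE against LPE. Over all genes tested it was -0.03, -0.01 and 0.01.

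Wwtr1, which encodes Taz, was highest in LPE. It stood at 63.8, 84.6 and 79.5 CPM in T, 238, 256 and 257 in LPE and 103, 99.9 and 76.3 in CPE. The lowest LPE library was above the highest of either other medium, whereas T and CPE overlapped. Wwtr1 was 3.30-fold higher in LPE than in T (log2 1.72, SE 0.17, edgeR adjusted p = 2.4e-06) and 2.69-fold lower in CPE than in LPE (log2 -1.43, SE 0.16, adjusted p = 1.9e-05). Between CPE and T it was not called, with a log2 difference of 0.29 and an interval of -0.07 to 0.65.

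Yap1, the paralogue of Taz, varied far less between media. Its levels were 106, 108 and 94.9 CPM in T, 125, 121 and 169 in LPE and 125, 112 and 90.5 in CPE. LPE lay above T without overlap, but the log2 difference of 0.43 (interval 0.03 to 0.82) was not called (edgeR adjusted p = 0.097), although limma voom with library weights called it (adjusted p = 0.0259). CPE overlapped with both other media, and its difference from T was 0.09 (interval -0.30 to 0.48). Of all reads on Yap1 and Wwtr1 together, the Yap1 share was 62.4%, 56.0% and 54.4% for T, 34.4%, 32.1% and 39.6% for LPE and 54.9%, 52.9% and 54.2% for CPE. Counting error alone gave exact Clopper-Pearson intervals of 49.2% to 59.5% for the lowest T library and 37.0% to 42.3% for the highest LPE library, which do not meet. The levels of both genes together came to 179 ± 11.9 CPM for T, 389 ± 33.3 for LPE and 202 ± 31.6 for CPE.

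**Figure D1:**
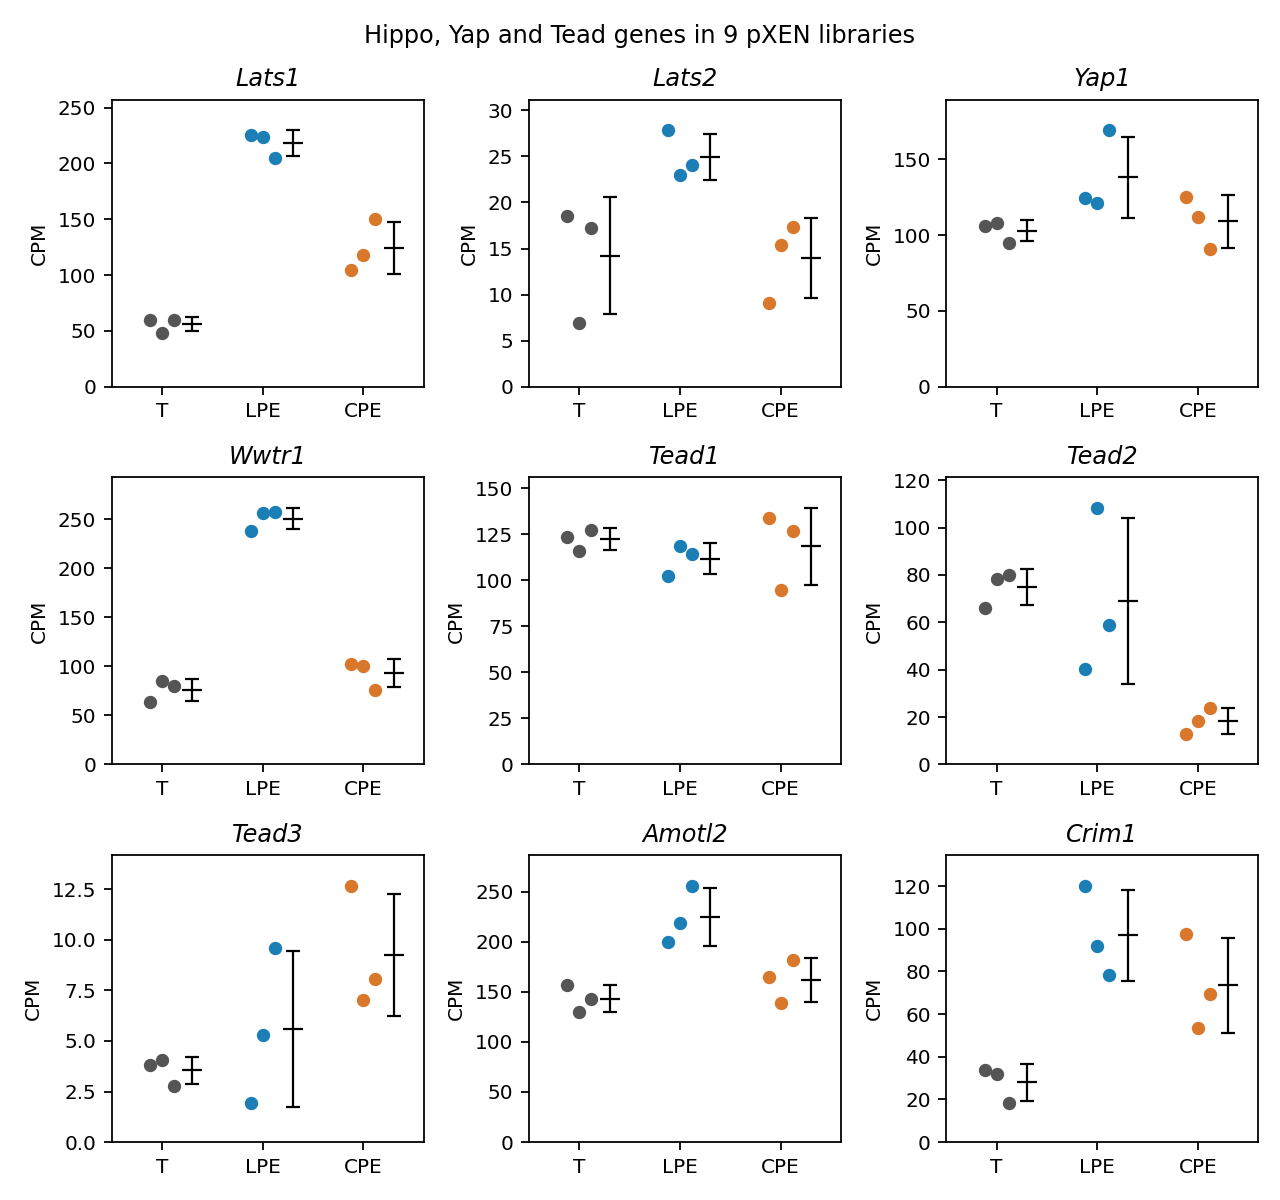
Level in CPM (y axis, from 0) of each of the 9 Hippo, Yap and Tead genes in the 3 media (x axis). Coloured points are libraries, and black bars are the mean with 1 SD (n = 3). Lats1 and Wwtr1 were highest in all 3 LPE libraries, and Tead2 was lowest in all 3 CPE libraries.

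Of the Tead genes tested, Tead2 alone was called in any comparison, and it was lower where Chir99021 replaced Lif. It stood at 66.0, 78.2 and 80.0 CPM in T, 40.3, 108 and 59.0 in LPE and 12.7, 18.2 and 23.8 in CPE. Every CPE library was below every other library, and LPE spread around T, its replicate 2 having the highest level of all 9. In CPE, Tead2 was 4.10-fold below T (log2 -2.04, SE 0.35, edgeR adjusted p = 0.00035) and 3.80-fold below LPE (log2 -1.92, SE 0.34, adjusted p = 0.0011). Without LPE replicate 2 the latter log2 difference was -1.45, and its adjusted p was at most 0.00802 in every alternative run. RefSeq lists a pseudogene of Tead2, and the counts leave out reads with several map positions, so its level is uncertain in all media.

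Tead1, the broadly expressed member of the family, had libraries of all media within a narrow range: 124, 116 and 127 CPM in T, 102, 119 and 114 in LPE and 134, 94.9 and 127 in CPE. All media overlapped, and the intervals of its log2 differences were -0.49 to 0.24, -0.41 to 0.32 and -0.28 to 0.44 for LPE against T, CPE against T and CPE against LPE. Tead3 was detected at 6 to 43 reads per library, or 3.82, 4.05 and 2.79 CPM in T, 1.92, 5.28 and 9.62 in LPE and 12.7, 7.04 and 8.05 in CPE. CPE lay above T without overlap, but Tead3 was not called, and its interval for CPE against T ran from -0.46 to 3.20 on the log2 scale. Of the reads on these 3 genes, the Tead2 share was 37.2% ± 2.79 for T, 35.5% ± 9.76 for LPE and 12.7% ± 4.10 for CPE, and that of Tead1 61.0% ± 2.75, 61.5% ± 9.84 and 81.0% ± 2.70. Vgll4, which competes with Yap for Tead proteins, had 13.3 ± 4.78, 14.1 ± 10.1 and 11.7 ± 2.27 CPM and was not called.

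**Figure D2:**
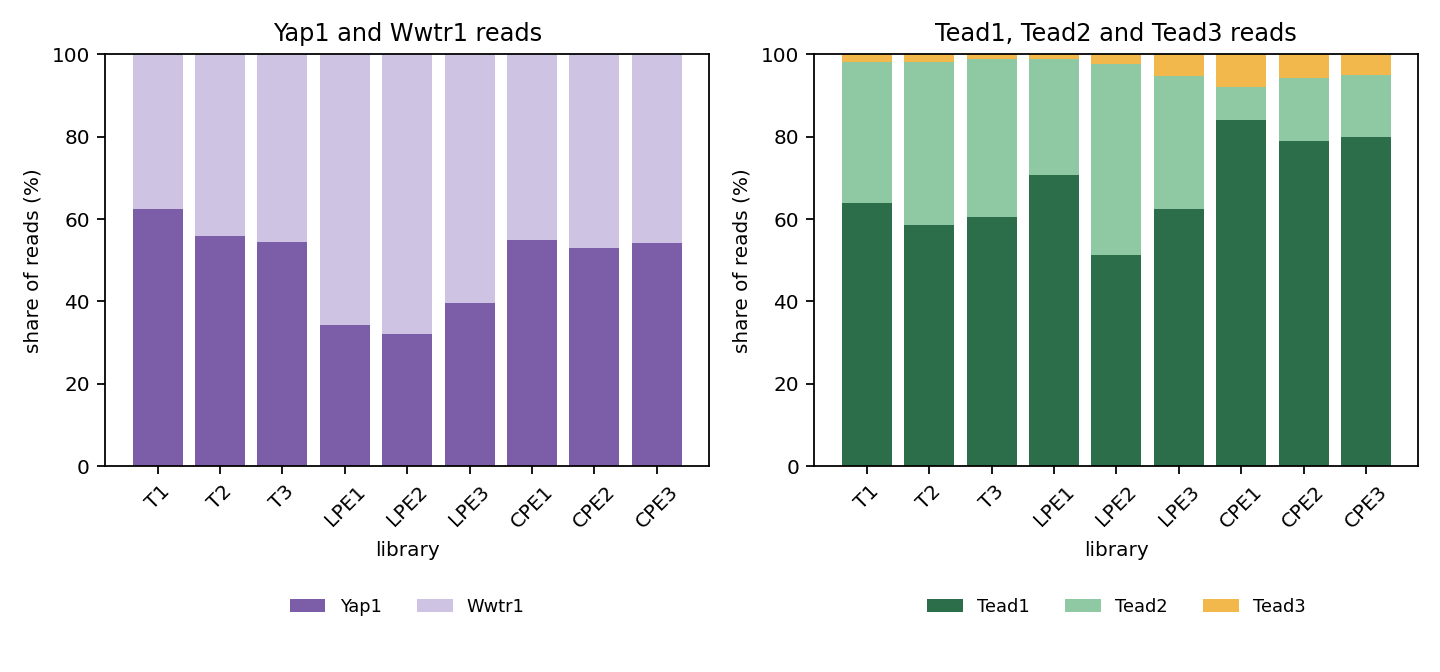
Share of reads (%, y axis) in each of the 9 libraries (x axis) that Yap1 took of the reads on Yap1 and Wwtr1 (left) and that Tead1, Tead2 and Tead3 took of their summed reads (right). Shares are not corrected for gene length. Yap1 took 32.1% to 39.6% in LPE and 52.9% to 62.4% elsewhere, and Tead2 took 7.96% to 15.1% in CPE and 27.9% to 46.5% elsewhere.

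Amotl2, an angiomotin family gene whose product binds and restrains Yap and which Yap itself induces, was moderately higher in LPE. Its levels were 157, 130 and 143 CPM in T, 199.5, 219 and 256 in LPE and 164, 139 and 182 in CPE. LPE did not overlap with T or CPE, whereas T and CPE did overlap. Amotl2 was 1.57-fold higher in LPE than in T (log2 0.65, SE 0.15, edgeR adjusted p = 0.0046) and 1.39-fold lower in CPE than in LPE (log2 -0.48, SE 0.15, adjusted p = 0.038). The call in CPE against LPE was lost without CPE replicate 1 or 2, LPE replicate 3 or any 1 T library (adjusted p = 0.0505 to 0.147) and when only the LPE and CPE libraries were fitted (0.0755).

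Crim1, a transmembrane protein gene that is part of published Yap target signatures, was higher in both serum-free media. It stood at 33.8, 31.9 and 18.1 CPM in T, 120, 92.0 and 78.5 in LPE and 97.6, 53.6 and 69.3 in CPE. Each serum-free library was above all T libraries, and LPE and CPE overlapped. Crim1 was 3.49-fold higher in LPE than in T (log2 1.8, SE 0.30, edgeR adjusted p = 3e-04) and 2.64-fold above T in CPE (log2 1.40, SE 0.30, adjusted p = 0.0019), while CPE and LPE differed by -0.40 on the log2 scale with an interval of -0.98 to 0.18.

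Counted together, 4 of the 9 genes were called in LPE against T, where 29.7% of all genes were called. The 9 were chosen with earlier results of these data known, so the counts here describe them and do not test them as a set. All 4 were higher (Lats1, Wwtr1, Amotl2 and Crim1), and higher calls made up 15.0% of all genes. Lower calls numbered 0 by edgeR, 0 at an unadjusted p under 0.05, where 5 were higher, and 0 by DESeq2 and by voom. In CPE against T 3 of 9 were called, beside 32.1% of all genes, with Lats1 and Crim1 higher and Tead2 lower. In CPE against LPE 4 of 9 were called, beside 17.8% of all genes, all of them lower (Lats1, Wwtr1, Tead2 and Amotl2), and lower calls made up 8.23% of all genes. Higher calls, 9.56% of all genes, numbered 0 of the 9 by edgeR, 0 at an unadjusted p under 0.05 and 0 by DESeq2 and voom. Libraries of the compared media did not overlap for 6, 4 and 5 of the 9 in LPE against T, CPE against T and CPE against LPE, beside 47.3%, 54.4% and 31.3% of all genes. The median log2 difference of the 9 was 0.66, 0.17 and -0.48 in that order, beside -0.03, -0.01 and 0.01 over all genes.

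**Figure D3:**
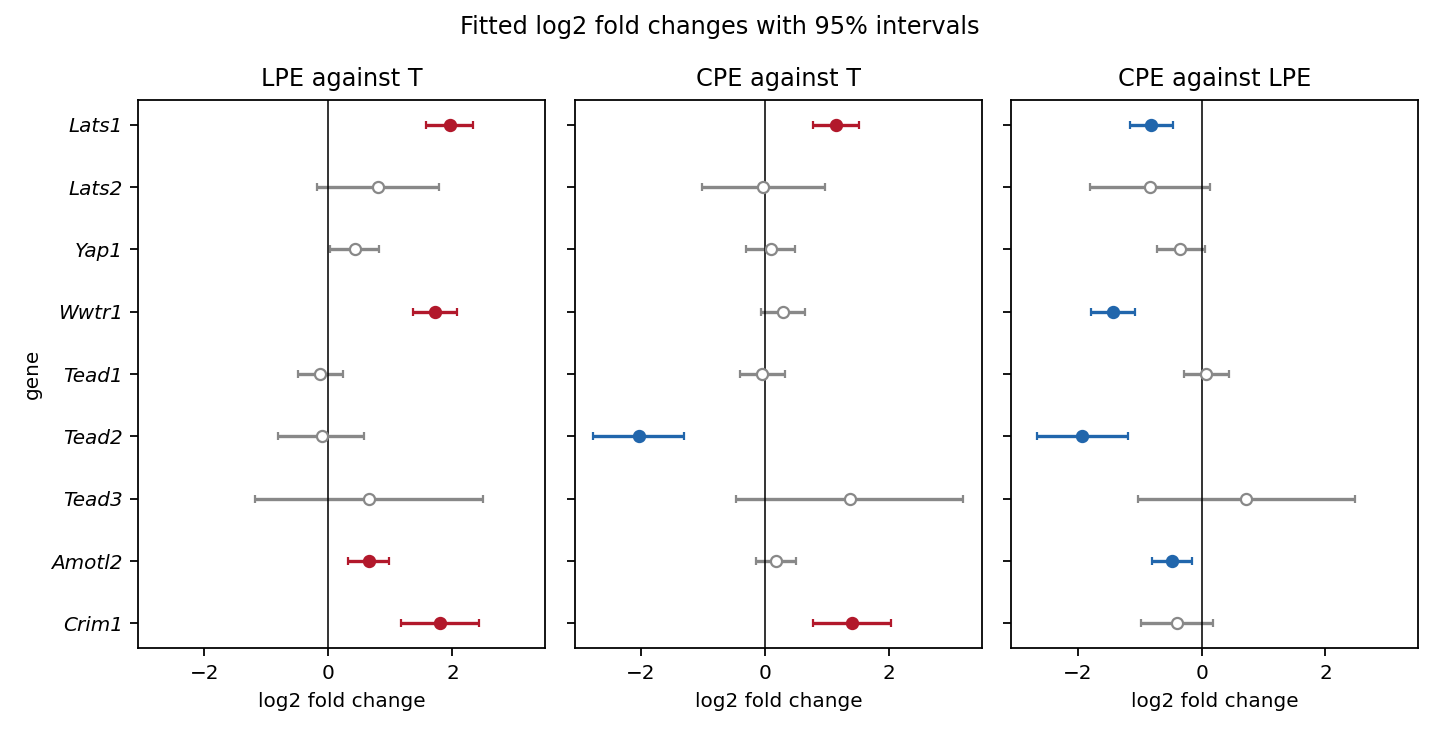
Fitted log2 fold change (x axis) of the 9 genes (y axis) in the 3 comparisons, with 95% intervals. Filled red points were called higher and filled blue points lower at an edgeR adjusted p under 0.05, and open grey points were not called. Lats1 was called in all 3 comparisons, and Lats2, Yap1, Tead1 and Tead3 in none of them.

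In bulk libraries, fewer cells of a type and less RNA per cell cannot be told apart. Fibroblast markers were detected in T only, with replicate 2 the highest. Without that library the log2 differences of LPE against T were 1.87 for Lats1, 1.8 for Wwtr1 and 1.91 for Crim1. The remaining T libraries still held reads of fibroblast markers, whose part in these differences was not tested. Trophoblast genes came together to 0.93 to 2.73 CPM for T, 0 to 3.11 for LPE and 12 to 29 for CPE, the medium in which Tead2 was low, and their part in that difference was not tested.

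Upstream regulators of the kinases and binding partners of Yap had 26 of 32 listed genes in the tables and 23 tested. In LPE against T 10 were called higher and 3 lower, beside 15.0% and 14.7% of all genes. Ctnna1, which encodes the junction protein alpha-catenin, rose 2.78-fold from 77.5 ± 7.51 to 216 ± 34.1 CPM. Wwc2, a relative of the scaffold Kibra, rose 2.5-fold to 102 ± 11.1 CPM. Ajuba, whose LIM-domain protein binds and inhibits Lats kinases, rose 2.26-fold from 195 ± 8.08 to 442 ± 21.2 CPM, and its relative Limd1 fell 1.76-fold from 179 ± 16.8 to 102 ± 9.10 CPM. The polarity gene Llgl1 fell 1.93-fold and Sike1 1.86-fold. Llgl1 was no longer called without LPE replicate 1 or T replicate 1 or 2 (edgeR adjusted p = 0.0649, 0.0673 and 0.0653), nor Sike1 without LPE replicate 2 or any 1 T library (0.0511 to 0.113). The number called in the list was 13 with all libraries and 7 without T replicate 2, and its median log2 difference was 0.57, beside -0.03 over all genes.

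In CPE against T 7 of the 23 were called higher and 1 lower, beside 16.8% and 15.3% of all genes. Ctnna1 and Wwc2 were again higher, 3.56-fold and 3.27-fold, and Frmd6, which encodes a FERM-domain activator of the cascade, rose 3.16-fold from 66.3 ± 10.5 to 210.1 ± 6.07 CPM. Llgl1 was 1.91-fold lower, but not called once CPE replicate 2 or 3 or T replicate 1 or 2 was left out (edgeR adjusted p = 0.0547 to 0.0807). The number called was 5 without CPE replicate 2 and 13 with voom, and the median was 0.40, beside -0.01 over all genes.

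Between the serum-free media Ajuba and Frmd6 differed in opposite directions, with 2 of the 23 called higher and 4 lower in CPE than in LPE, beside 9.56% and 8.23% of all genes. Ajuba was 1.93-fold lower, at 219.7, 188 and 279 CPM in CPE against 449, 459 and 418 in LPE (edgeR adjusted p = 0.00019). Frmd6 was 2.13-fold higher, at 206, 217 and 207 CPM against 95.9, 107 and 93.0 (adjusted p = 0.00019). Neither gene's CPE libraries overlapped with those of LPE. The remaining calls were of Amotl2, given above, and of the genes Limd1 (1.36-fold higher), Map4k4 (1.75-fold lower) and Strn3 (1.48-fold lower), a subunit of the phosphatase complex that opposes the Hippo kinases. Limd1 lost its call without any 1 library but LPE replicate 3 (adjusted p up to 0.1), Map4k4 without any but replicate 2 of a medium (up to 0.119) and Strn3 without any but CPE replicate 1 or LPE replicate 2 (up to 0.132). The list's 6 calls became 7 without LPE replicate 2 and 2 or 3 without any other library.

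Target genes of Yap and Tead moved in different directions in the same libraries. Of 22 listed, 18 were in the tables and 13 tested, with Amotl2, Crim1 and Lats2 among them. In LPE against T 3 were called higher and 1 lower, beside 15.0% and 14.7% of all genes, so that the 4 calls among 13 are near the 29.7% called of all genes. Besides Crim1 and Amotl2, Asap1, which encodes a regulator of Arf GTPases, rose 2.77-fold from 14.1 ± 7.71 to 38.9 ± 10.1 CPM. F3, the tissue factor gene, fell 2.42-fold. In CPE against T 3 were higher and 3 lower, beside 16.8% and 15.3% of all genes. Asap1 rose 3.54-fold, and Myof, a membrane repair gene, rose 2.88-fold, from 99.3, 150.0 and 118 CPM in T to 393, 318 and 346 in CPE.

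F3 fell stepwise from T to LPE to CPE. It stood at 557, 613 and 605 CPM in T, 246, 214 and 274 in LPE and 71.7, 79.3 and 97.6 in CPE, without overlap between any pair of media. In CPE, F3 was 7.15-fold below T (edgeR adjusted p = 2.6e-09) and 2.96-fold below LPE (adjusted p = 1.6e-06). Against T, F3 thus went opposite to Crim1, another gene of the same target list. In CPE against LPE both log2 differences were negative, -1.56 for F3 and -0.40 for Crim1, which was not called.

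None of the classical targets Ccn1, Ccn2 and Ankrd1 was called higher in either serum-free medium. Ccn2 (Ctgf), a secreted matricellular protein gene with 3 matches, had 148, 159 and 117 CPM in T, 208, 119 and 111 in LPE and 144, 56.6 and 176 in CPE. Its media overlapped in each comparison, and its intervals were -0.64 to 0.74, -0.87 to 0.51 and -0.91 to 0.46 for LPE against T, CPE against T and CPE against LPE. Ccn1 (Cyr61), of the same family, had 64.4, 60.8 and 43.2 CPM in T, 68.1, 36.7 and 44.2 in LPE and 24.8, 13.0 and 39.0 in CPE. CPE was below T without overlap, a 2.21-fold fall (edgeR adjusted p = 0.027) whose call was lost without CPE replicate 1 or 2 or T replicate 1 or 2 (0.0715 to 0.105). Ankrd1, a cofactor gene also used as a Yap reporter, had 10.4, 19.1 and 13.5 CPM in T, 23.0, 16.2 and 8.65 in LPE and 3.24, 3.18 and 6.12 in CPE. Its fall in CPE was 3.42-fold from T (edgeR adjusted p = 0.041) and 3.81-fold from LPE (0.042). Ankrd1 lost the call against T without CPE replicate 1 or 2 or any 1 T library (0.0674 to 0.176) and without the low-count filter (0.0583). It lost the call against LPE without CPE replicate 1 or 2, LPE replicate 1 or any 1 T library (0.0712 to 0.127). That call was also lost with voom (0.112), without the low-count filter (0.0553) and when only the LPE and CPE libraries were fitted (0.152).

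**Figure D4:**
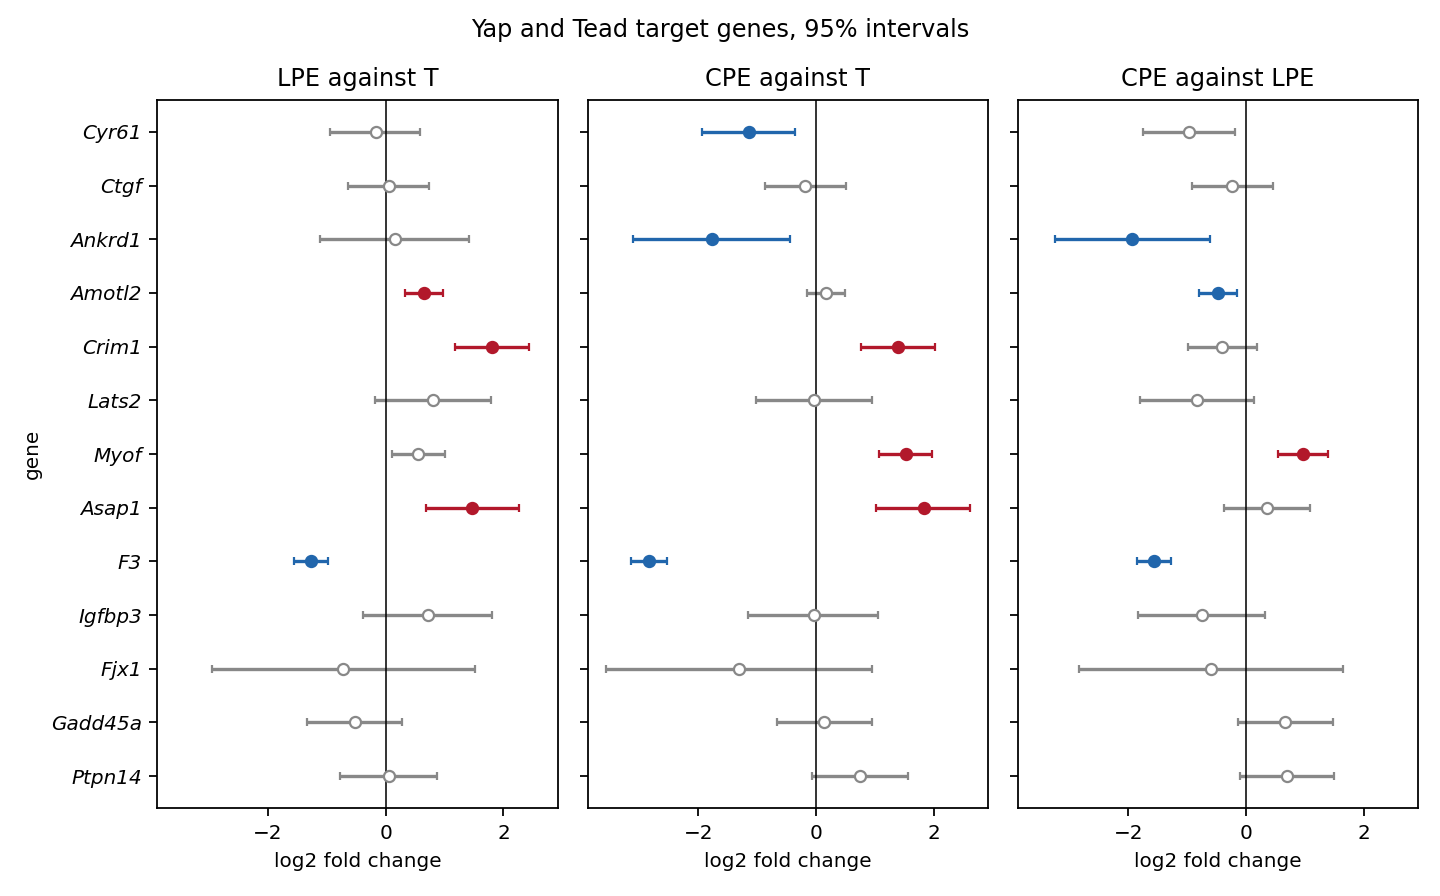
Fitted log2 fold change (x axis) of the 13 tested Yap and Tead target genes (y axis) in the 3 comparisons, with 95% intervals. Filled red points were called higher, filled blue points lower (edgeR adjusted p under 0.05), and open grey points were not called. Crim1 and Asap1 were higher and F3 lower in both serum-free media than in T, and Cyr61 and Ankrd1 were lower in CPE than in T.

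In CPE against LPE 1 of the 13 targets was called higher, Myof, and 3 lower, Amotl2, Ankrd1 and F3, beside 9.56% and 8.23% of all genes. Myof was 1.96-fold higher (edgeR adjusted p = 0.0033). Over the target list the median log2 difference was 0.16 in LPE against T, -0.03 in CPE against T and -0.48 in CPE against LPE, beside -0.03, -0.01 and 0.01 over all genes, and the number called in the last comparison, 4, was 2 without CPE replicate 1 or 2 or without any 1 T library. Nuak2 had 5, 5 and 6 reads in T and 0 in LPE and CPE, too few to be tested.

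The trophoblast genes that Tead4 and Yap control in the embryo had few or 0 counts in T and LPE, and not all of them rose in CPE. Tfap2c had 4, 3 and 1 counts in T, 0, 10 and 0 in LPE and 0, 0 and 2 in CPE, and was not tested. Gata3 had 0 counts in all 9 libraries. Cdx2 had 28 counts in CPE replicate 1, 70 in replicate 3 and 0 in replicate 2, and 0 in every T and LPE library, and it was not tested. Elf5, a transcription factor gene of trophoblast stem cells, had 33, 53 and 18 counts in CPE, 1 in each T library and 0 in each LPE library. Its CPE mean was at least 9.65-fold above LPE set at 3 counts per library, and 18.2-fold above T with an interval of 6.04 to 89.5, where bound and interval cover only the error of counting, as reads are not separate molecules. Elf5 was called in both comparisons by edgeR (adjusted p = 0.0045 against LPE and 0.027 against T). The call against T was lost without CPE replicate 1 or 2 or any 1 T library (0.0521 to 0.145).

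For the 5 genes called in at least 2 comparisons, the 2 most similar patterns were sought among 7496 other genes of at least 10 CPM, by the root mean square difference of centred log2 CPM over the 9 libraries. The genes' own variation around their means, on the same scale, was 0.814 for Lats1, 0.768 for Wwtr1, 0.994 for Tead2, 0.307 for Amotl2 and 0.839 for Crim1. Wwtr1 was closest to Map3k5 (0.147), a stress-activated kinase gene with 17.7, 66 and 25.4 CPM in T, LPE and CPE, and to Zscan10 (0.213), a zinc finger gene. Lats1 was closest to Fbxo11 (0.225) and Kpna2 (0.226), the latter an importin gene with 298, 984 and 741 CPM. Nearest to Tead2 were Plscr1 (0.285) and the cell cycle factor gene E2f1 (0.315), which had 53.6, 39 and 10.2 CPM. Nearest to Amotl2 were Nutf2 (0.13) and Inadl (0.136), a polarity gene that is also in the list of upstream regulators. Crim1 was closest to Dlgap4 (0.281) and Itgb6 (0.296), an integrin gene with 8.7, 46.3 and 24.1 CPM.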

How the data were processed

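RNA of 9 pXEN libraries was sequenced from a directional kit after ribosomal RNA removal, with random primers and 101 paired cycles, per the labels' protocols. STAR 2.5.1, Trimmomatic 0.33, CASAVA 1.8.2 and DESeq2 are named, with build rn6, per the submitters' processing notes, with the annotation not given in the sources used here. The deposited values are raw counts of reads per gene, for either strand and for each strand. The gene-strand column, which holds nearly all gene reads, was used. Summary lines were kept out of library sizes. Reads that map to several places, 64.9% to 67.6% of a T library and 51.7% to 59.9% of an LPE or CPE library, enter no gene.

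All genes were fitted with edgeR 4.0.16 in R 4.3.3 (quasi-likelihood F test, 1 mean per medium, TMM, filterByExpr at its minimum of 10 counts and total of 15), with p-values adjusted by Benjamini-Hochberg over 9130 genes. CPM use the TMM factors, similarity of patterns used log2 CPM with a prior count of 2, and SEs were taken from the F statistic. The method was tested on simulated data. Alternatives were DESeq2 1.42.0, limma 3.58.1 (voom with library weights), DESeq2 size factors, no filter, only the groups compared, the replicate number as a block, the either-strand column and each library left out. Scaling by library totals alone was chosen after seeing the data.

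The genes described and the gene lists were chosen with earlier results of these data known. Named in each pathway list were up to 3 called genes with the largest rise and 3 with the largest fall, of at least 5 CPM in the higher group, and 10 standard pathway genes, and marker lists are given as counts. Promoter sequences came from a RefSeq table of GRCr8, a different build, in which 6 of the 10 genes matched by symbol. No gene length was used, so levels are not compared between genes.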

Additional observations from a re-analysis of the deposited data

Results flagged for a closer look

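Reads on the strand opposite to a gene were left out of every comparison, and a few libraries held more of them than the 3 counts that a count of 0 allows. Tead3 had 4 such reads in T replicate 1, 46 in LPE replicate 3, 7 in CPE replicate 1 and 9 in CPE replicate 2. In LPE replicate 3 they outnumbered the 30 reads on the gene's own strand. Over all 9 libraries Tead3 had 71 reads on the opposite strand and 172 on its own, a share of 29.2%, against 0.355% or less for each of the other 8 genes. Tead1 had 8 such reads in LPE replicate 2, and Yap1 had 5 in LPE replicate 1 and 5 in CPE replicate 2.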

How the results depend on the processing

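Each gene's log2 difference was recomputed under 17 alternatives. The calls of Lats1, Wwtr1, Tead2 and Crim1 kept their direction and stayed past the threshold in all of them, as did the higher Amotl2 in LPE than in T. The lower Amotl2 in CPE than in LPE lost its call in 7. Differences near 0, none called, changed sign. Lats2 in CPE against T was 0.02 with the replicate block. With 1 library left out it ran from -0.35 to 0.19, Yap1 in the same comparison from -0.02 to 0.20 and Tead1 from -0.15 to 0.09. Tead1 in CPE against LPE ran from -0.01 to 0.22, and Tead2 in LPE against T from -0.58 without LPE replicate 2 to 0.17 without LPE replicate 1. The cause was not tested. With reads of either strand, the share of Tead reads on Tead3 was 2.43% in T and 5.3% in LPE, against 1.78% and 2.95%, since that column adds the opposite strand.

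Over all genes tested, same-numbered libraries did not deviate together (correlations of -0.027 to 0.012, against -0.047 to 0.035 for other numbers). A pairing that touched few genes would not show in such correlations. The replicate block left 4, 3 and 4 of the 9 genes called in LPE against T, CPE against T and CPE against LPE, and 2558, 2751 and 1500 of all genes, against 2716, 2928 and 1624. Leaving out 1 library gave 1896 to 2853, 2083 to 3490 and 1298 to 1758. Without T replicate 3 lower calls in LPE against T numbered 892, against 1343. With the block Ankrd1 lost its calls in CPE (edgeR adjusted p = 0.0789 and 0.0904), as did Elf5 against T (0.0752), and 3 regulators in place of 6 were called in CPE against LPE. Tead3 and Lats2 had the fewest reads of the 9 genes, 6 to 43 and 12 to 87 per library, and the part of depth in their wide intervals was not tested.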
